A study of Mus musculus with 12 samples.

Results

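Myc and the genes that build ribosomes were followed here as 1 group of 45 genes in sorted OTII cells. OTII cells are CD4+ T cells whose transgenic receptor recognizes a peptide of ovalbumin (OVA). The genes were taken from the raw read counts by their symbols. They had been chosen from general knowledge, with earlier results of these data known. All 45 were among the 40840 gene symbols counted, and all 45 passed the filter on low counts, which left 13570 genes to be tested. The lowest count of any of them in any library was 165, for Rrs1.

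OTII cells were transferred into WT B6 mice or into Il6-/- mice, which lack interleukin-6, and the recipients were sensitized i.n. on 3 days with house dust mite extract that contained LPS (HDM LPS) together with LPS-free OVA. Donor cells were then sorted from the mediastinal lymph nodes (mLNs) on Day 3 or Day 5, giving 4 groups of 3 libraries: WT recipients on Day 3, Il6-/- recipients on Day 3, WT recipients on Day 5 and Il6-/- recipients on Day 5. The labelled genotype is that of the recipient, all recipients received allergen, LPS and OVA, and no library came from untreated cells. The sample labels name blood as the tissue and leave out the LPS, so tissue and treatment are given here from the methods of the study, and the age of the recipients is not given in the sources used here. The labels number the samples of a group from 1 to 3 without saying that each came from a separate mouse, so p-values measure only the spread between these samples. The Il6 deletion was in the recipients, and the 0 to 5 reads on Il6 in a library of donor cells therefore say nothing about the recipient.

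Reads on genes numbered between 16125947 and 26111657 per library. Their share of all reads was 60.2% to 62.2% in the Day 3 libraries but 52.5% to 56.7% in those of Day 5. The 7 T-cell markers examined, among them Cd3e, Cd4 and Trac, summed to between 7202 and 8995 CPM, which are counts scaled to the same library size, on Day 3 and between 11677 and 13502 CPM on Day 5. Markers of B cells summed to at most 10.7 CPM, those of myeloid and dendritic cells to at most 53.4 CPM, and those of lung epithelium to at most 20.7 CPM. Cd8a, which defines CD8 T cells, was at or below 1.04 CPM as a group mean, although Cd8b1 had 62.7 to 74.7 CPM.

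Myc is a transcription factor that is induced when a T cell is activated, and it drives growth in cell mass. Together with its partner Max it binds a short DNA sequence called the E-box and raises the transcription of many genes of metabolism and protein synthesis. Ribosomes are built in the nucleolus: RNA polymerase I transcribes the long precursor of rRNA, small nucleolar ribonucleoproteins (snoRNPs) modify it, the small subunit processome cuts and folds the part that becomes the small subunit, and a separate set of factors, including the PeBoW complex of Pes1, Bop1 and Wdr12, matures the large subunit. Genes for these factors are well-known targets of Myc, and their RNA is abundant in lymphoblasts that are about to divide.

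The canonical E-box, CACGTG, reads the same on both strands, and it was searched around the start sites of the 45 genes because it is the sequence that Myc and Max bind. Start sites and sequence came from GENCODE vM39 on GRCm39. Within 1000 bases on either side of the start, 33 of the 45 genes (73.3%) held at least 1 match, beside 29.1% of 19429 protein-coding genes. Among the genes tested that had such a window the share was 33.2%, and among those whose promoter held at least 19 CpG, the median of the 45 genes, it was 35.4%. Of the 50 matches, 7 lay upstream of the start, 23 in exons and 20 in introns, and 11 genes held 2 or more (24.4%, beside 7.67% of the genes tested). Ncl held 5, all in introns. Myc itself held 0. A narrower window, from 250 bases before the start to 50 bases into the gene, held the motif in 8 of the 45 genes (17.8%, beside 8.33% of all and 10.2% of the genes tested). Among the genes tested whose promoter held at least 19 CpG, the share in this narrower window was 12.8%. The wider window was searched after the narrower one had been seen. A match is a stretch of sequence and no measurement of binding.

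The following stretches show the motif, in capitals, in some of the genes that held it, all 5′ to 3′ on the strand of the gene and in GRCm39. In the box C/D snoRNP gene Nop56 and in Nop2, which encodes an rRNA methyltransferase of the large subunit, the motif lies in the last 100 bases before the start, at chr2:130115735-130115834 (plus strand) and chr6:125108720-125108819 (plus strand).
Nop56: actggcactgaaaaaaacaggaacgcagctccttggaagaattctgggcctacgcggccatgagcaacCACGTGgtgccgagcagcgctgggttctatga
Nop2: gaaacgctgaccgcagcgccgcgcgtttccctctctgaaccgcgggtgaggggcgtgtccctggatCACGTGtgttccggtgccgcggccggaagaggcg

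In exons of Fbl (chr7:27869148-27869177, plus strand), Rrs1 (chr1:9615649-9615678, plus strand), Wdr43 (chr17:71923215-71923244, plus strand), Pno1 (chr11:17161535-17161564, minus strand) and Gnl3 (chr14:30740948-30740977, minus strand) the matches were as follows.
Fbl: ggcgctcctttcCACGTGcgaaagcctgag
Rrs1: tccggacgtccgCACGTGgttgccggttta
Wdr43: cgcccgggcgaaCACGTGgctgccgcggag
Pno1: tgtacaaccacgCACGTGttcctctagtcg
Gnl3: agttccagttcgCACGTGgcgcccgagaag

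In introns of Npm1 (chr11:33112371-33112400, minus strand, with a second match left in lower case at its end), Nop58 (chr1:59724530-59724559, plus strand) and Ncl (chr1:86286540-86286569 and chr1:86286374-86286403, minus strand) they read as follows.
Npm1: aacccctaggagCACGTGgttgccacgtgg
Nop58: ggttcaggtgaaCACGTGgcttctccgaat
Ncl: cgcctccccgcgCACGTGctctggtgcgcg
Ncl: gaccgggatggaCACGTGgtggacccctga

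The 45 genes together took a larger share of the counts on Day 3 than on Day 5, and on Day 3 a larger share in Il6-/- than in WT recipients. The share was 0.565% to 0.623% in WT recipients and 0.792% to 0.918% in Il6-/- recipients on Day 3. On Day 5 it was 0.349% to 0.372% in WT recipients and 0.362% to 0.427% in Il6-/- recipients. The ranges of the groups were apart on Day 3 and overlapped on Day 5. All values are relative to the other RNA of a library, and in bulk samples fewer cells that express a gene and less of its RNA per cell cannot be told apart.

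**Figure D1:**
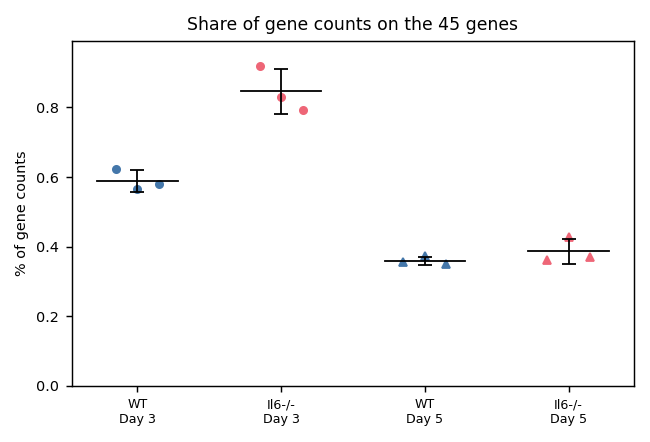
Share of all gene counts (%) that fell on the 45 genes in each of the 12 libraries, by recipient genotype and day, with the mean and SD of 3 libraries. The 3 Il6-/- libraries of Day 3 lie between 0.792% and 0.918%, above the 3 WT libraries of Day 3, and all 6 libraries of Day 5 lie below 0.43%.

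Between genes, levels were compared per kilobase of the canonical transcript, as the mean over the 12 libraries. Npm1, which encodes the nucleolar chaperone nucleophosmin, was the highest at 652 CPM per kb. The next were Nop10 at 144 and Nhp2 at 143, both small proteins of the box H/ACA snoRNP that turns uridine into pseudouridine, and Fbl at 122, the rRNA methyltransferase of the box C/D snoRNP. Within the other roles the highest were Imp3 of the small subunit processome at 71.2, Bop1 of the PeBoW complex at 52.5, Wdr74 among the large subunit factors at 48.1, Mybbp1a among the RNA polymerase I genes at 43.0 and Pno1 among the late small subunit factors at 36.2 CPM per kb. Myc stood at 24.2 CPM per kb. The lowest were the very long transcripts of Utp20 at 2.62 and Polr1a at 3.89 CPM per kb. The canonical transcripts of Ncl, Nop58 and Wdr12 are annotated with 8288 to 10012 bases, and reads may not cover such lengths evenly, which limits the comparison of their levels per kb.

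Replicates of a group lay close together for most of the genes. The median coefficient of variation over the 45 genes was 6.43% (WT) and 8.91% (Il6-/-) on Day 3, and 7.29% (WT) and 9.83% (Il6-/-) on Day 5. Noc2l was the most variable in WT recipients, with 39.5% on Day 3 and 39.0% on Day 5, and Rrp12 in Il6-/- recipients on Day 5, with 38.6%. Many of the genes shifted together between replicates. WT replicate 1 of Day 3 was the highest of its group for 35 genes, Il6-/- replicate 1 of Day 3 for 40 and Il6-/- replicate 2 of Day 5 for 35. Counts of genes are therefore not counts of separate observations.

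On Day 3, the ribosome biogenesis genes were higher in cells from Il6-/- recipients than in cells from WT recipients. Of the 45 genes, 33 passed the test (edgeR quasi-likelihood, FDR under 0.05 over all genes tested), all of them upward, and 0 passed downward. Over all genes tested, 7.52% passed upward and 6.19% downward. The fold change was above 0 for each of the 45, from a log2 fold change of 0.18 for Imp3 to 0.94 for Gnl3. Its median was 0.52, a 1.44-fold difference, beside 0.015 over all genes tested. In 42 of the 45 genes the 3 Il6-/- libraries lay above the 3 WT libraries, which was so for 20.5% of all genes tested. None of the 45 reached a 2-fold difference, the additional limit that the study used, which 0.936% of all genes passed upward. No gene of the 45 was lower at an unadjusted p under 0.05 or in DESeq2 or limma either (0 in each). Il6-/- replicate 1 held the highest value of its group for 40 of the 45 genes, and without it 23 genes passed, with 3.77% of all genes upward. Of the T-cell markers, 2 of 7 passed downward in this comparison, and of the 10 proliferation genes examined 0 passed in either direction, with 1 at an unadjusted p under 0.05. Among the 4 tested markers of NK and CD8 T cells and the 4 tested markers of lung epithelium 1 each passed upward, with Klrb1c at 4.82 and 20.9 CPM and Sftpc at 0.052 and 3.27 CPM as the means of WT and Il6-/- recipients. The summed lung epithelium markers were uneven among the Il6-/- libraries of Day 3, from 0.475 to 11.3 CPM. The part of all these markers in the result was not tested.

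**Figure D2:**
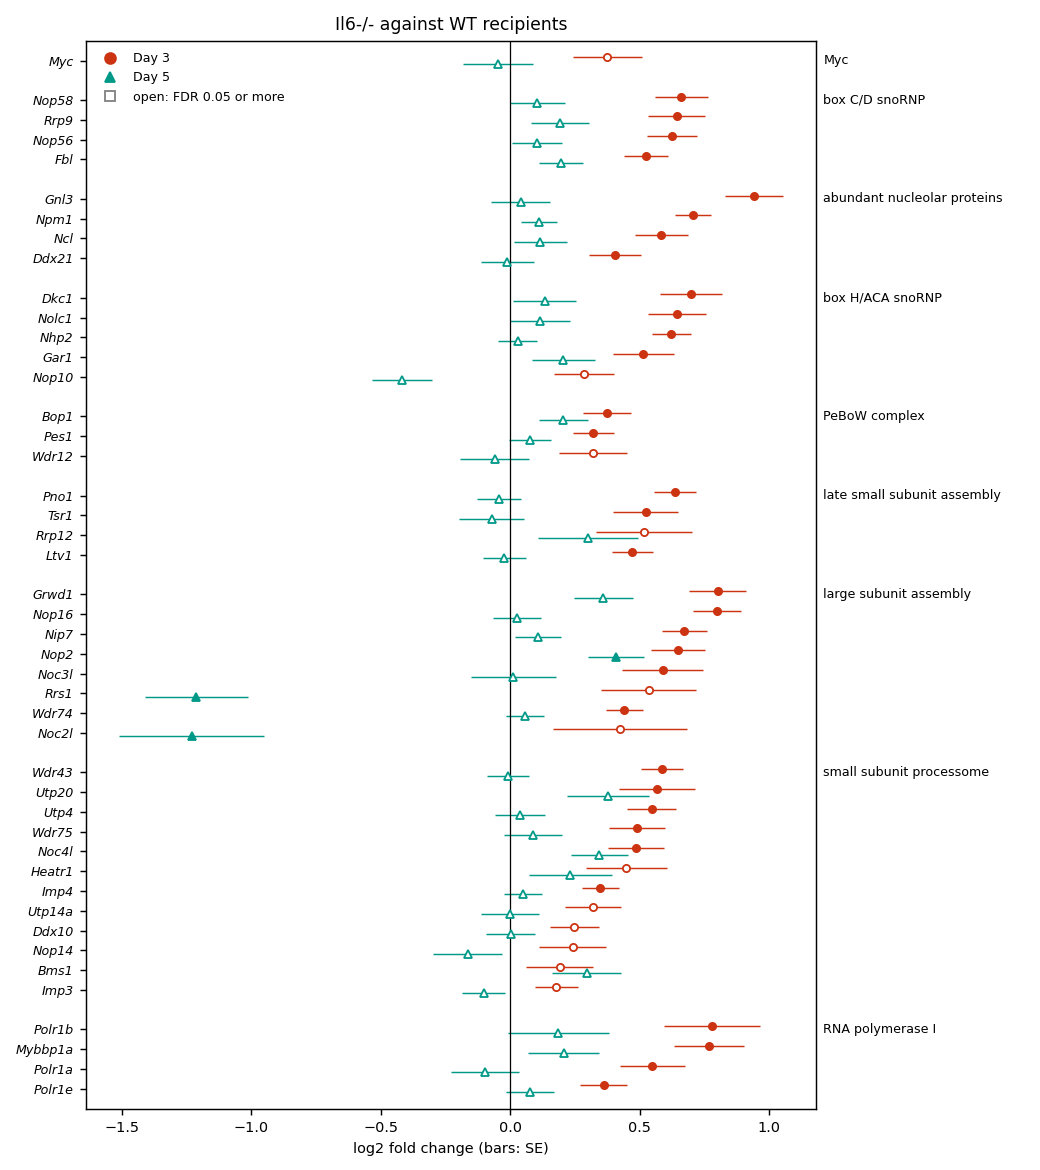
Log2 fold change of Il6-/- against WT recipients (x axis, bars are SE) for the 45 genes in their role groups, on Day 3 (circles) and Day 5 (triangles), filled where the FDR was under 0.05. The Day 3 values all lie to the right of 0, between 0.18 and 0.94, while the Day 5 values gather around 0, with Rrs1 and Noc2l at -1.21 and -1.23.

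Myc itself did not pass the test on Day 3. It had 58.4, 60.8 and 53.5 CPM in WT recipients on Day 3, in the order of the replicates, and 81.4, 78.3 and 64.6 CPM in Il6-/- recipients. The 3 Il6-/- libraries were above the 3 WT libraries, by a log2 fold change of 0.38 ± 0.13 (SE) that did not pass the test (FDR = 0.0769). The call depended on the settings, because the FDR was 0.0126 without a filter on low counts, 0.0174 when the Day 3 libraries were fitted alone, 0.0496 without Il6-/- replicate 3 and 0.244 without Il6-/- replicate 1.

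All 4 genes of the RNA polymerase I group passed on Day 3. Mybbp1a, which encodes a nucleolar protein that binds the Myb factor and takes part in rRNA transcription, had 210.4, 205 and 198 CPM in WT recipients and 401, 330.2 and 314 CPM in Il6-/- recipients. The groups did not overlap, and the log2 fold change was 0.77 ± 0.14 (FDR = 0.00174). Polr1a and Polr1b, the catalytic core of the polymerase, differed by 0.55 ± 0.13 and 0.78 ± 0.19, and the accessory subunit gene Polr1e by 0.36 ± 0.09 (log2 fold changes).

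Box C/D snoRNPs include those that guide methylation of rRNA. The 4 genes of this role group, Nop56, Nop58, Fbl and Rrp9, passed with log2 fold changes of 0.52 to 0.66. Fbl had 175, 159 and 164 CPM in WT recipients and 253, 244 and 219 CPM in Il6-/- recipients. Nop58, a scaffold protein of these particles, had 218, 182 and 188 CPM in WT recipients and 343, 302 and 284 CPM in Il6-/- recipients. For both genes every Il6-/- library was above every WT library.

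Of the 5 box H/ACA snoRNP genes, 4 passed. Nhp2 had 164, 150.1 and 168 CPM in WT recipients and 257, 256 and 229 CPM in Il6-/- recipients, without overlap (log2 fold change 0.62 ± 0.08, FDR = 0.000124). Dkc1, the pseudouridine synthase, differed by 0.70 ± 0.12, the snoRNP chaperone gene Nolc1 by 0.64 ± 0.11 and Gar1 by 0.51 ± 0.12. Nop10 had 152, 150.2 and 161 CPM in WT recipients and 188, 191 and 186 CPM in Il6-/- recipients. Its libraries did not overlap, but its log2 fold change of 0.29 ± 0.12 did not pass (FDR = 0.12).

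The 4 abundant nucleolar proteins all passed. Npm1 had 1183, 1089.6 and 1181 CPM in WT recipients and 1964, 1849 and 1827 CPM in Il6-/- recipients. With groups far apart, it had the smallest p of the 45 genes (log2 fold change 0.71 ± 0.07, FDR = 1.9e-05). Gnl3, which encodes the GTP-binding protein nucleostemin, had 53.8, 46.4 and 49.9 CPM against 109, 96.5 and 83.7 CPM, the largest difference of the 45 (0.94 ± 0.11, FDR = 9.46e-05). Ncl, the gene of nucleolin, had 904, 787 and 847 CPM against 1418, 1232 and 1154 CPM (0.58 ± 0.10, FDR = 0.0017). None of these groups overlapped, and the RNA helicase gene Ddx21 differed by 0.41 ± 0.10 (FDR = 0.014).

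The large subunit factors gave 6 calls of 8. Nop16 had 59.4, 52.3 and 56.5 CPM in WT recipients and 107, 97.4 and 88.7 CPM in Il6-/- recipients, again without overlap (0.80 ± 0.09, FDR = 7.09e-05). Grwd1, a chaperone of a ribosomal protein, differed as much (0.80 ± 0.11), Nip7 by 0.67 ± 0.09, Nop2 by 0.65 ± 0.10 and Noc3l by 0.59 ± 0.16. Wdr74 had 59.2, 58.2 and 58.4 CPM against 78.5, 79.2 and 81.0 CPM (0.44 ± 0.07, FDR = 0.00104), with the tightest replicates of the group in WT recipients. Noc2l and Rrs1 did not pass and are described with Day 5. In the PeBoW complex Bop1, with 165, 141 and 148 CPM against 212, 194 and 182 CPM, and Pes1 passed (0.38 ± 0.09 and 0.32 ± 0.08), and Wdr12 did not (0.32 ± 0.13, FDR = 0.122).

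The small subunit processome was the role with the fewest calls for its size, 6 of 12. Wdr43 and Utp4, which act early on the nascent precursor, differed by 0.59 ± 0.08 and 0.55 ± 0.10, and Utp20, Wdr75, Noc4l and Imp4 by 0.35 to 0.57. Imp3 had 61.2, 62.2 and 63.6 CPM in WT recipients and 68.5, 75.2 and 68.1 CPM in Il6-/- recipients, the smallest fold change of the 45 (0.18 ± 0.08, FDR = 0.182). The others that did not pass were Nop14, Utp14a, Heatr1, Ddx10 and Bms1. Whether the role groups differ from one another was not tested. Of the 4 factors that finish the small subunit, Pno1 had 63.5, 59.5 and 65.5 CPM in WT recipients and 100.3, 101 and 91.5 CPM in Il6-/- recipients (0.64 ± 0.08, FDR = 0.0002), Tsr1 and Ltv1 also passed, and Rrp12 did not (0.52 ± 0.19, FDR = 0.0791).

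Genes that passed on Day 3 were found with and without an E-box. Of the 33 genes with an E-box within 1000 bases, 26 passed on Day 3 with a median log2 fold change of 0.55 over the 33, and of the 12 without one, 7 passed with a median of 0.43 over the 12. Nop16 and Nhp2, with 2 of the 4 smallest p-values, were among those without a match. These counts are a description and were not tested.

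On Day 5 few of the genes passed the test between recipients. Of the 45, 1 passed upward (1.27% of all genes tested) and 2 downward (3.35% of all), with 31 fold changes above 0 and 14 below. The median log2 fold change was 0.077, beside 0.011 over all genes tested. The 3 Il6-/- libraries were above the 3 WT libraries for 5 genes (8.65% of all genes tested) and below them for 2 genes (11% of all). The 2 genes that passed downward were also past the 2-fold limit, as were 0.818% of all genes.

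Nop2 was the gene that passed upward on Day 5. It had 104, 89.0 and 92.4 CPM in WT recipients and 169, 138 and 139 CPM in Il6-/- recipients on Day 3. On Day 5 it had 47.6, 49.5 and 46.6 CPM against 59.5, 73.4 and 57.9 CPM. The groups did not overlap on either day, and the log2 fold change on Day 5 was 0.41 ± 0.11 (FDR = 0.0406). The call was lost in 9 of the 12 fits that left out 1 library, with an FDR of up to 0.134 without Il6-/- replicate 2 of Day 5.

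Rrs1, a large subunit factor whose gene has a single exon, was above WT in Il6-/- recipients on Day 3 and below it on Day 5. On Day 3 it had 59.3, 40.0 and 35.3 CPM in WT recipients and 73.4, 61.2 and 60.9 CPM in Il6-/- recipients. On Day 5 it had 28.6, 29.9 and 19.7 CPM against 11.2, 9.67 and 12.8 CPM. The groups did not overlap on either day. The log2 fold change was 0.53 ± 0.18 on Day 3 (FDR = 0.0674) and -1.21 ± 0.20 on Day 5 (FDR = 0.0039), and the call of Day 5 was kept in all 25 other fits, with an FDR of up to 0.0236.

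Noc2l, a large subunit factor also known as an inhibitor of histone acetylation, was below WT in Il6-/- recipients on Day 5. On Day 3 it had 117, 65.0 and 59.4 CPM in WT recipients and 120.1, 107 and 97.6 CPM in Il6-/- recipients, with overlap, WT replicate 1 being high, and the log2 fold change of 0.43 ± 0.26 did not pass (FDR = 0.325). On Day 5 it had 50.7, 49.1 and 22.4 CPM against 16.1, 19.0 and 17.0 CPM, without overlap. The log2 fold change on Day 5 was -1.23 ± 0.28 (FDR = 0.0209), and the call was lost without WT replicate 1 or 2 or Il6-/- replicate 2 or 3 of Day 5 (FDR of up to 0.103) and in limma-voom. Its exons share 598 bases with those of Samd11 on the opposite strand, and the reads were counted without regard to strand. Reads that fit more than 1 gene were set aside as ambiguous, so reads of Noc2l from there may be missing from its counts.

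Nop10 was the one box H/ACA gene with a negative fold change on Day 5. It had 244, 238 and 172 CPM in WT recipients and 175, 142 and 173 CPM in Il6-/- recipients, with a slight overlap (log2 fold change -0.42 ± 0.12, FDR = 0.0525). Myc had 51.8, 40.6 and 56.6 CPM in WT recipients and 47.8, 55.6 and 40.9 CPM in Il6-/- recipients on Day 5. The groups overlapped fully, and the log2 fold change of -0.05 ± 0.14 did not pass (FDR = 0.894).

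Libraries of Day 5 that carried the same replicate number deviated together, so the comparison was also fitted with the replicate number as a block. With it 4 genes passed upward, namely Nop2, Noc4l, Grwd1 and Bms1, with log2 fold changes of 0.28 to 0.40, and 3 downward, namely Rrs1, Noc2l and Nop10, while 5.43% of all genes tested passed upward and 6.3% downward in that fit. DESeq2 gave 3 upward and 3 downward, beside 4.37% and 5.7% of 11202 genes in DESeq2. Of the 10 proliferation genes, 0 passed on Day 5, but all 10 fold changes were above 0 and 9 had an unadjusted p under 0.05.

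**Figure D3:**
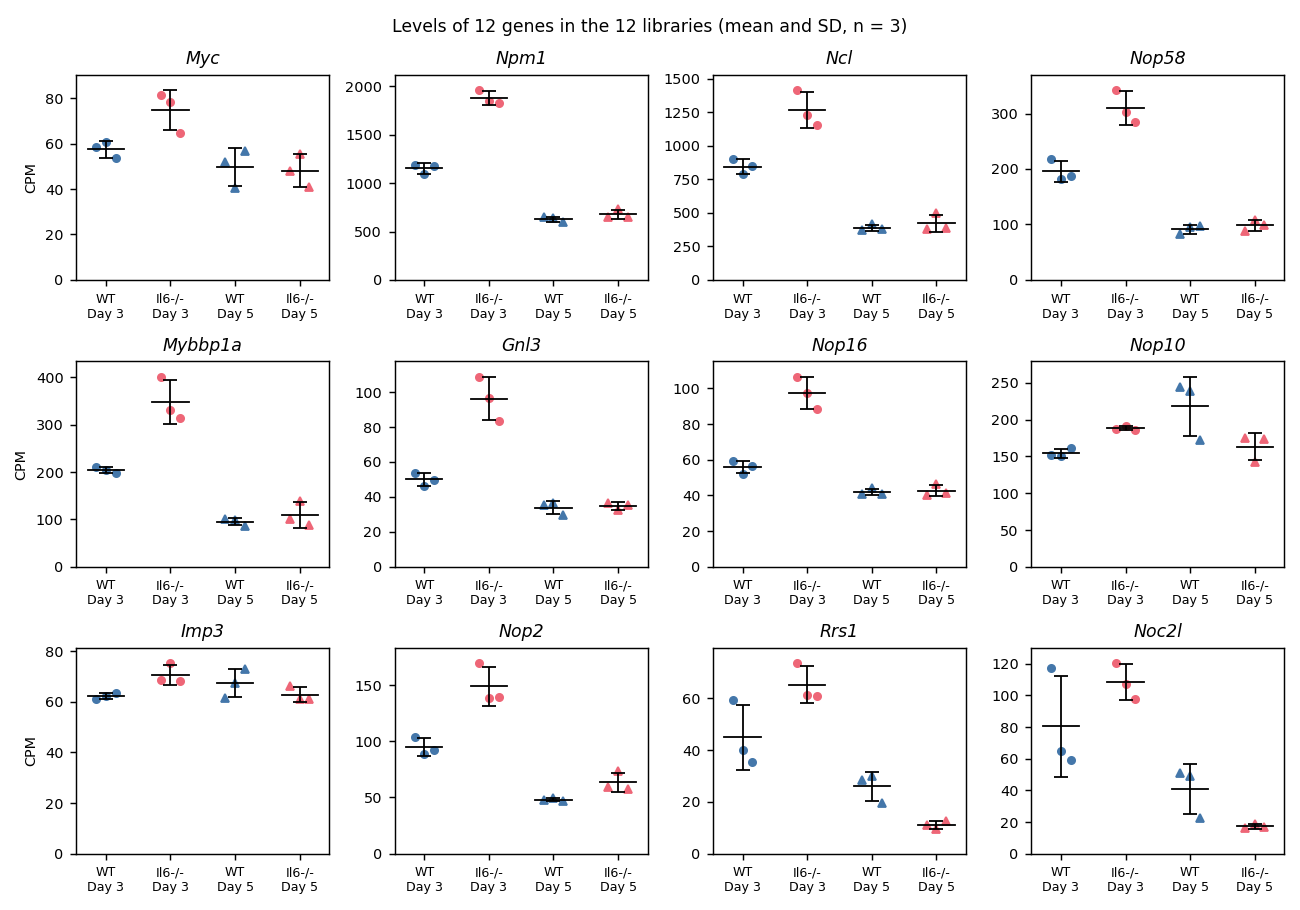
Levels in CPM of 12 of the genes in each of the 12 libraries, by recipient genotype and day (circles Day 3, triangles Day 5, blue WT, red Il6-/-), with the mean and SD of 3 libraries and each axis starting at 0. Npm1, Ncl, Nop58, Mybbp1a, Gnl3 and Nop16 are highest in Il6-/- recipients on Day 3, Imp3 is nearly level, and Rrs1 and Noc2l are lowest in Il6-/- recipients on Day 5.

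From Day 3 to Day 5 the ribosome biogenesis genes fell in both kinds of recipient. In WT recipients 41 of the 45 passed downward and 1 upward, while 27.1% of all genes tested passed downward and 29.5% upward. In Il6-/- recipients 43 passed downward and 0 upward, while 30.1% of all genes passed downward and 30.4% upward. The median log2 fold change was -0.73 in WT recipients and -1.22 in Il6-/- recipients, beside 0.091 and 0.087 over all genes tested. The fall reached 2-fold for 9 genes in WT recipients (9.39% of all genes tested) and for 30 in Il6-/- recipients (11.4% of all). All 3 libraries of Day 5 lay below those of Day 3 for 42 genes in WT recipients (29.9% of all) and for all 45 in Il6-/- recipients (32.7% of all). No gene was higher in Il6-/- recipients at an unadjusted p under 0.05, in DESeq2 or in limma (0 in each). The comparisons of days share their Day 3 and Day 5 libraries with the comparisons of recipients, so a gene that was high in Il6-/- recipients on Day 3 enters both.

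The 10 proliferation genes fell over the same days. These genes, among them Mki67, Top2a and Mcm5, summed to 5640 to 6331 CPM on Day 3 and 588 to 1704 CPM on Day 5, and all 10 passed downward in both kinds of recipient. Between the recipients their median log2 fold change was 0.069 on Day 3 and 0.66 on Day 5. All 7 T-cell markers passed upward from Day 3 to Day 5 in both kinds of recipient. The part of these changes in the fall of the ribosome biogenesis genes was not tested.

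Npm1 had the smallest p of the fall in both kinds of recipient. It went down to 646, 642 and 599 CPM in WT recipients on Day 5 and to 655, 733 and 649 CPM in Il6-/- recipients. The log2 fold changes from Day 3 were -0.87 ± 0.07 (FDR = 1.04e-07) and -1.47 ± 0.07 (FDR = 3.47e-09). Ncl went down to 376, 414 and 379 CPM in WT recipients and to 382, 496 and 389 CPM in Il6-/- recipients. On Day 5 the recipients overlapped for Ncl, while for Npm1 every Il6-/- library was slightly above every WT library, neither passing the test.

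Fbl had 81.4, 90.4 and 90.2 CPM on Day 5 in WT recipients and 93.0, 109.8 and 97.5 CPM in Il6-/- recipients, and Nop58 had 82.0, 95.1 and 97.1 CPM against 87.3, 108 and 99.5 CPM. Their log2 fold changes from Day 3 were -0.93 ± 0.09 and -1.10 ± 0.11 in WT recipients and -1.25 ± 0.09 and -1.66 ± 0.11 in Il6-/- recipients. Pno1 had 32.1, 35.9 and 33.5 CPM against 31.7, 34.7 and 32.2 CPM on Day 5, and Nhp2 had 96.1, 99.4 and 94.7 CPM against 93.3, 102 and 101 CPM. For Pno1 the fall was -0.89 ± 0.08 in WT and -1.57 ± 0.09 in Il6-/- recipients, and for Nhp2 -0.73 ± 0.08 and -1.32 ± 0.08. No library of Day 5 reached the lowest of Day 3 for any of these 4 genes.

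Mybbp1a had 100.0, 98.7 and 86.2 CPM in WT recipients and 99.9, 139.8 and 89.1 CPM in Il6-/- recipients on Day 5. Bop1 had 83.4, 91.6 and 79.0 CPM against 89.2, 108 and 96.1 CPM. Gnl3 had 35.5, 36.7 and 29.6 CPM against 36.7, 32.4 and 35.5 CPM, Nop16 40.9, 44.0 and 40.8 CPM against 40.5, 46.2 and 41.4 CPM, and Wdr74 50.3, 48.4 and 48.9 CPM against 50.7, 53.9 and 49.2 CPM. The recipients overlapped on Day 5 for each of these 5 genes. The deepest falls were those of Noc2l (-2.64 ± 0.28) and Rrs1 (-2.54 ± 0.20) in Il6-/- recipients, and in WT recipients those of Rrp12 (-1.29 ± 0.19) and Gar1 (-1.29 ± 0.12).

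Nop10 was the exception among the 45. In WT recipients it rose from Day 3 to Day 5 (log2 fold change 0.50 ± 0.12, FDR = 0.00185), although WT replicate 3 of Day 5 was near the level of Day 3, and in Il6-/- recipients its change of -0.21 ± 0.12 did not pass (FDR = 0.136). Imp3 had 61.7, 67.5 and 73.1 CPM in WT recipients and 66.4, 60.9 and 61.2 CPM in Il6-/- recipients on Day 5, and it passed in neither (0.11 ± 0.08 and -0.17 ± 0.08). Utp14a passed only in Il6-/- recipients (-0.52 ± 0.11, FDR = 0.000816), where its change in WT recipients was -0.20 ± 0.11 (FDR = 0.138), and the difference between the 2 changes did not pass (FDR = 0.259). Myc fell in Il6-/- recipients (-0.64 ± 0.13, FDR = 0.000812), and its change in WT recipients was -0.21 ± 0.13 (FDR = 0.189).

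**Figure D4:**
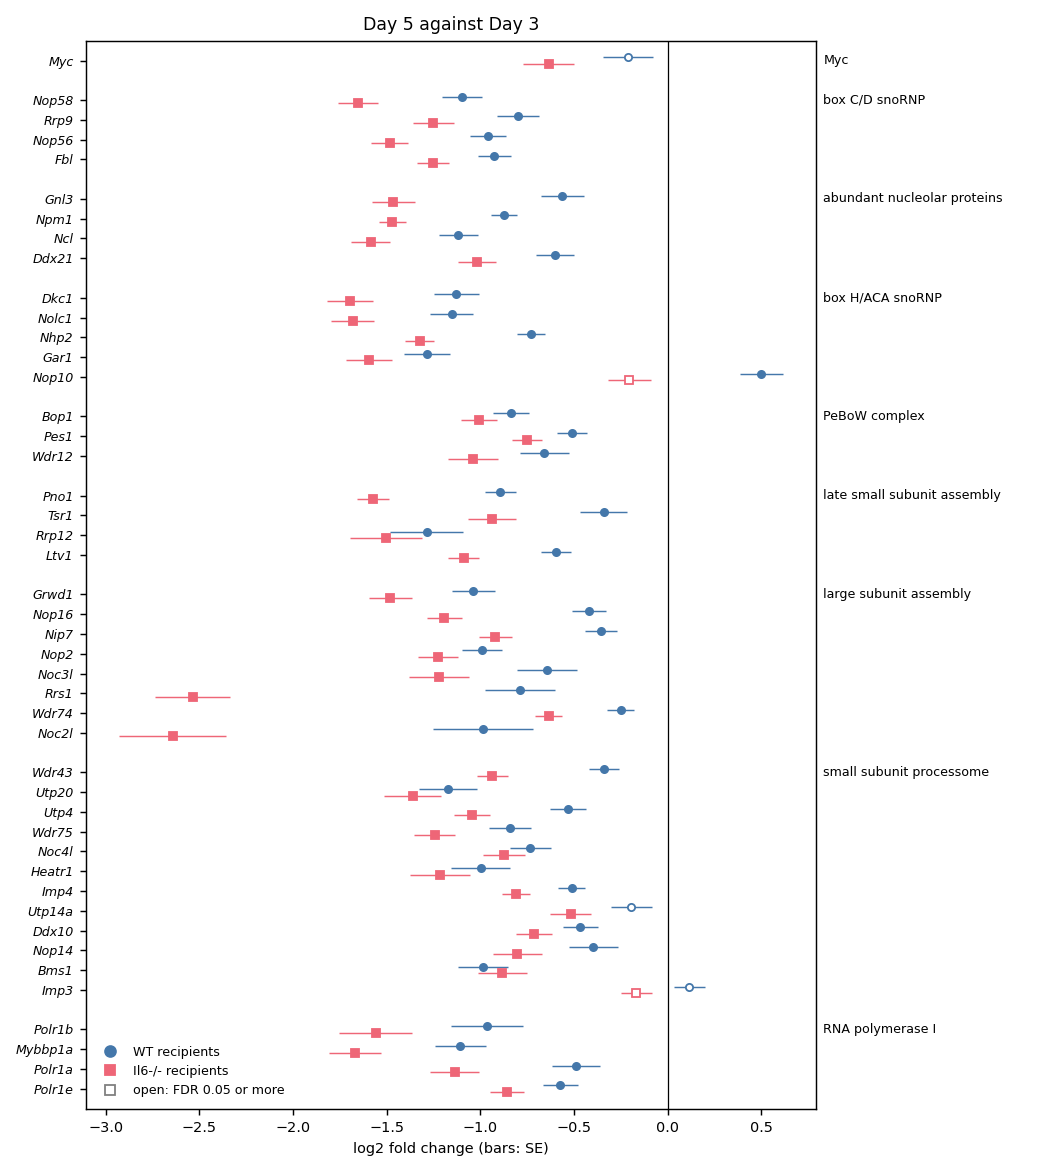
Log2 fold change of Day 5 against Day 3 (x axis, bars are SE) for the 45 genes in their role groups, in WT recipients (blue circles) and Il6-/- recipients (red squares), filled where the FDR was under 0.05. All values but those of Nop10 and Imp3 in WT recipients lie left of 0, and the Il6-/- value is the more negative one for 44 of the 45 genes.

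The log2 fold change between recipients on Day 3 minus that on Day 5 was tested as a difference of its own, and it was above 0 for 15 of the 45 genes past the test and below 0 for 0. For Rrs1, Noc2l and Nop10 among the 15 the value on Day 5 was negative and the larger in size. Over all genes tested, 3.12% passed in the first direction and 1.8% in the second. The difference was above 0 for 44 of the 45 genes, with a median of 0.45 on the log2 scale beside -0.0045 over all genes tested, and Bms1 was the exception (-0.10 ± 0.19). The smallest p-values were those of Rrs1 (1.75 ± 0.27, FDR = 0.00433), Npm1 (0.60 ± 0.10, FDR = 0.00536), Nop16 (0.77 ± 0.13, FDR = 0.00601) and Pno1 (0.68 ± 0.12, FDR = 0.00785). By role they came from the box C/D snoRNP (2 of 4), the box H/ACA snoRNP (2 of 5), the abundant nucleolar proteins (2 of 4), the large subunit factors (5 of 8), the processome (2 of 12) and the late small subunit factors (2 of 4), with 0 from RNA polymerase I and the PeBoW complex, where 4 of 4 and 1 of 3 genes had an unadjusted p under 0.05, upward. DESeq2 gave 19 upward (5.83% of 11202 genes in DESeq2) and 0 downward over the 45. The difference for Myc was 0.42 ± 0.19 (FDR = 0.223). The count fell to 7 when WT replicate 2 or 3 of Day 3, WT replicate 2 of Day 5 or Il6-/- replicate 1 or 2 of Day 3 was left out, and to 9 without Il6-/- replicate 3 of Day 5. The share of all genes that passed upward was 0.969% to 1.14% in the first of these fits and 1.99% in the last. It rose to 26 with replicate numbers as a block within each day, a fit that was chosen after seeing the data and in which 6.24% of all genes passed upward.

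Other factors of ribosome biogenesis, listed from general knowledge, moved mostly in the same directions. This list and those below were chosen with earlier results of these data known, so they are no independent support. Of 93 such genes, 48 passed upward and 0 downward between recipients on Day 3, with a median log2 fold change of 0.34. Rpf2, which brings a small ribonucleoprotein into the large subunit, had 80.0 ± 6.06 CPM (SD, n = 3) in WT recipients versus 130.7 ± 10.6 CPM in Il6-/- recipients (log2 fold change 0.71 ± 0.09), Ppan differed by 0.72 ± 0.09 and Lyar by 0.65 ± 0.10. On Day 5, 2 passed upward and 2 downward. From Day 3 to Day 5, 66 fell and 2 rose in WT recipients, and 84 fell and 1 rose in Il6-/- recipients, with Lyar falling by 1.60 and by 1.96 on the log2 scale. In the difference of the genotype effects 11 passed upward and 0 downward. Beside this list and those below stand the shares of all genes tested. These were 7.52% upward and 6.19% downward on Day 3, and 1.27% and 3.35% on Day 5. From Day 3 to Day 5, 29.5% rose and 27.1% fell in WT recipients, and 30.4% rose and 30.1% fell in Il6-/- recipients. In the difference 3.12% passed upward and 1.8% downward.

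The remaining genes of RNA polymerase I moved in fewer numbers. Some of the 17 genes listed, such as Polr2h, encode subunits shared with other RNA polymerases. Of the 17, 6 passed upward between recipients on Day 3. Among them Cd3eap, an accessory subunit, was at 20.0 ± 2.41 CPM in WT versus 33.6 ± 2.94 CPM in Il6-/- recipients. On Day 5, 0 passed in either direction, with 1 at an unadjusted p under 0.05. From Day 3 to Day 5, 4 fell and 1 rose in WT recipients, among them Rrn3, the initiation factor (-0.78 ± 0.11), and Ubtf, which binds rRNA genes (-0.46 ± 0.09). The falls in WT recipients were no more frequent than among all genes tested (27.1%). In Il6-/- recipients 12 of these genes fell and 1 rose. The 22 genes of RNA polymerase III, which makes tRNA, gave 3 upward calls on Day 3 and 1 downward call on Day 5, that of the initiation factor Brf1, at 67.5 ± 12.7 CPM in WT versus 36.8 ± 1.94 CPM in Il6-/- recipients. From Day 3 to Day 5, 12 of them fell and 2 rose in WT recipients and 15 fell and 2 rose in Il6-/- recipients. Maf1, which represses this polymerase, rose in both (0.75 ± 0.08 and 0.92 ± 0.08).

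Known targets of Myc with other functions, a list chosen in the same way, moved mostly in the same directions as the ribosome biogenesis genes. Of 24 such genes, 19 passed upward and 0 downward on Day 3, with a median log2 fold change of 0.49. Hspd1, a mitochondrial chaperone, had 443 ± 58.6 CPM in WT versus 751 ± 85.0 CPM in Il6-/- recipients. On Day 5, 0 passed upward (6 at an unadjusted p under 0.05) and 1 downward, Srm, the gene of spermidine synthase. Srm had 81.5 ± 22.2 CPM in WT versus 173 ± 28.4 CPM in Il6-/- recipients on Day 3, and 29.0 ± 8.86 CPM against 15.4 ± 2.74 CPM on Day 5. From Day 3 to Day 5, 22 fell and 1 rose in WT recipients and 23 fell and 1 rose in Il6-/- recipients. The cyclin gene Ccnd2 was the one that rose in WT recipients, from 138 ± 17.4 to 502 ± 24.7 CPM.

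The partners and antagonists of Myc gave no calls between recipients. Of the 14 genes listed, 11 passed the filter on low counts, and Mycn, Mycl and Mlxipl did not, with 0 to 14 reads in a library. In edgeR 0 of the 11 passed on Day 3, with 0 at an unadjusted p under 0.05, and 0 passed on Day 5, with 1 upward and 3 downward at that p. The lists were tested in edgeR alone. From Day 3 to Day 5, 6 rose and 2 fell in WT recipients (29.5% and 27.1% of all genes tested). In Il6-/- recipients 6 rose and 1 fell (30.4% and 30.1% of all). The falls were no more frequent than those shares. Max, Mxd1, a repressor that competes with Myc for Max, and Mnt, another repressor of this kind, rose in both. The log2 fold changes in WT and Il6-/- recipients were 0.37 and 0.45 for Max, 0.38 and 0.88 for Mxd1, and 0.59 and 0.43 for Mnt. Mxd3, a relative of Mxd1, fell from 73.0 ± 4.30 to 16.3 ± 6.57 CPM in WT recipients and from 59.0 ± 5.52 to 19.9 ± 6.29 CPM in Il6-/- recipients.

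Genes that link ribosome assembly to p53 were also listed. Of 9 genes tested, Rpl5, Rpl11 and Trp53 passed upward between recipients on Day 3, with log2 fold changes of 0.42 ± 0.06, 0.31 ± 0.09 and 0.34 ± 0.07. The protein products of Rpl5 and Rpl11 bind and hold the p53 regulator Mdm2 when ribosome assembly fails. On Day 5, 1 gene passed upward, Ccng1, a p53 target (0.32 ± 0.08), and 0 downward, with 2 upward and 0 downward at an unadjusted p under 0.05. Between the days, 2 rose and 1 fell in WT recipients (29.5% and 27.1% of all genes tested). In Il6-/- recipients 2 rose and 2 fell (30.4% and 30.1% of all). These counts are no more than those shares and are no result about the list. Rpl11 rose in WT recipients (0.38 ± 0.09), as did Mdm4, a relative of Mdm2 (0.46 ± 0.10), and Trp53 fell (-0.22 ± 0.07). In Il6-/- recipients Mdm4 rose (0.56 ± 0.10), while Rpl5 fell (-0.53 ± 0.06) and so did Trp53 (-0.47 ± 0.07). In the difference of the genotype effects Rpl5 and Rpl11 passed upward, each at 0.50.

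Of the 45 genes, 11 share exon sequence with a gene on the opposite strand, and reads were counted without regard to strand. Reads that fit more than 1 gene were set aside as ambiguous, 1.96% to 2.28% of all reads in a library. The counts of these 11 genes may therefore miss reads. Among them are Tsr1, with Sgsm2 and Srr, and Dkc1, which shares 1111 bases with Mpp1. Only canonical transcripts of counted genes that matched the annotation were compared, and among these the other 34 genes share none.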

How the data were processed

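Poly(A) RNA of the 12 samples of sorted OTII cells was sequenced. The authors used Trim Galore 0.4.4 for trimming, STAR 2.5.2a with GRCm39 for alignment, and unstranded counting in HTSeq 0.6.1p1, and deposited raw counts of reads per gene symbol. The authors also deposited a table of log2 CPM for 11258 genes, which holds all 45 genes and was used only as an alternative. The 45 genes, their role groups and the lists were chosen from general knowledge, with earlier results of these data known.

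Testing used edgeR 4.0.16 (R 4.3.3) after filterByExpr on the 4 groups and TMM scaling, with all 12 libraries in a single quasi-likelihood model of group means (median biological coefficient of variation 0.132). A gene passed at an FDR (Benjamini-Hochberg) under 0.05 over the 13570 genes tested. CPM use TMM-scaled library sizes, and a fold change is given on the log2 scale with its SE. All 45 genes may be named. Values in every library are given for Myc, for the 4 genes with the smallest p per comparison and direction, for the most abundant gene per length of each role and for genes against the main direction. From the other lists, the 3 genes with the smallest p per comparison may be named. Alternatives were RLE, upper-quartile and no scaling, a filter at 1 CPM in 3 libraries or none at all, DESeq2 1.42.0, limma 3.58.1 (voom, and trend on the deposited log2 CPM), offsets for GC content and length, a replicate block, the compared groups alone, a 2-fold limit, and leaving out each library. The main fit ignores the replicate number, and the block is only an alternative. Same-numbered libraries of the 2 recipients had correlated deviations from their group means on Day 5 (r = 0.243, 0.206 and 0.129). On Day 3 the correlations were weak (r = 0.0333, 0.0599 and 0.0325), although the same number was the best match there too. For the comparisons of days and the difference, the replicate block paired numbers across days, where r was -0.071 to 0.071. The edgeR fit was tested on simulated data. Start sites, lengths and sequence came from GENCODE vM39, to which 79.9% of the symbols and all 45 genes were matched.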

Additional observations from a re-analysis of the deposited data

Results flagged for a closer look

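The effect of the recipient genotype differed between Day 3 and Day 5 (edgeR interaction, FDR under 0.05) for the following genes. The values are the log2 fold change on Day 3 minus that on Day 5. Among the 45 genes they were 1.75 for Rrs1, 1.66 for Noc2l, 0.90 for Gnl3, 0.77 for Nop16, 0.70 for Nop10, 0.68 for Pno1, 0.60 for Npm1, 0.60 for Wdr43, 0.59 for Nhp2, 0.57 for Nip7, 0.56 for Nop58, 0.52 for Nop56, 0.51 for Utp4, 0.49 for Ltv1 and 0.38 for Wdr74. For 12 of these 15 the effect was an excess in Il6-/- recipients on Day 3 that was between -0.04 and 0.11 on Day 5, while for Rrs1, Noc2l and Nop10 the fold change was above 0 on Day 3, without passing the test, and below 0 on Day 5, where Rrs1 and Noc2l passed.

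Among the 3 genes with the smallest p of each other list they were 1.99 for Srm, 1.47 for the amino acid transporter gene Slc7a5 and 0.67 for Set among the Myc targets, 0.69 for Rpf2, 1.13 for Nol9 and 0.70 for Rcl1 among the other ribosome biogenesis factors, 0.89 for Cd3eap, 0.58 for Polr2h and 0.62 for Polr2f among the RNA polymerase I genes, 0.82 for Brf1 of RNA polymerase III, and 0.50 for Rpl5 and 0.50 for Rpl11. Polr2h and Polr2f encode subunits shared with other RNA polymerases.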

How the results depend on the processing

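The counts of genes that passed on Day 3 and from Day 3 to Day 5 stayed within 1.5 times their value under every alternative except the 2-fold limit and, for the 1 gene that rose in WT recipients, upper-quartile scaling. With the 2-fold limit the counts were 0 upward on Day 3, 0 upward on Day 5, 0 upward and 9 downward from Day 3 to Day 5 in WT recipients, and 2 upward in the difference of the genotype effects, and Myc in Il6-/- recipients (-0.64) was no longer past it. Upper-quartile scaling gave 2 upward in WT recipients. It moved the median of all genes from Day 3 to Day 5 to 0.29 and 0.32, and the medians of the 45 genes to -0.54 and -0.99. On Day 5 the upward count was 3 without a filter, 4 with the replicate block, 5 with the block and the GC-content offset, 0 with the libraries of Day 5 alone, 3 with DESeq2 and 0 with limma-voom, which gave 1 downward. Over all genes tested, 1.27% passed upward on Day 5 in the main fit and 5.43% with the block, and in DESeq2 the share was 4.37% of 11202 genes. Counts in this section for which no such share is given cannot be read as results about the 45 genes alone. The difference of the genotype effects gave 26 with the block within each day. Myc passed on Day 3 without a filter (0.37), with the block and the GC-content offset (0.38) and with the Day 3 libraries alone (0.35), and from Day 3 to Day 5 in WT recipients without a filter (-0.28). Leaving out 1 library gave 23 to 35 upward on Day 3, 0 to 2 upward and 1 to 3 downward on Day 5, and 7 to 16 in the difference. Myc ranged from 0.31 to 0.47 on Day 3 and from -0.17 to 0.06 on Day 5, where it changed sign without WT replicate 3 (0.058) or Il6-/- replicate 3 (0.058) of Day 5. Of the genes that passed, 23 of 33 on Day 3, 36 of 42 in WT recipients, 42 of 42 in Il6-/- recipients other than Myc and 7 of 15 in the difference kept their calls in every fit at an FDR under 0.05, and each kept its direction. Outside Day 5 and the difference, the replicate block changed no count by over 1.5 times, and on Day 3 it gave 38 upward. With 3 libraries a group, small differences may go undetected.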
